A study of Homo sapiens with 14 samples.

Results

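The genes described here are 10 members of the NF-kappaB pathway: the Rel subunit genes NFKB1, NFKB2, RELA and RELB, the inhibitor genes NFKBIA, NFKBIE and TNFAIP3, the receptor gene CD40, the adaptor gene TRAF1 and the target gene ICAM1. They were taken by name from the 19410 genes of the deposited table, and all 10 were found there. RNA-Seq was performed on MDA-MB-231, an established triple-negative breast cancer cell line, in 7 groups of 2 libraries each. The groups were the parental cells and 6 CRISPR/Cas9-edited lines, of which MLL1-KO1 and MLL1-KO2 were edited at MLL1, SAP30-KO1 and SAP30-KO2 at SAP30, and the lines SIN3A/3B-DKO1 and SIN3A/3B-DKO2 were edited at both SIN3A and SIN3B. SAP30 and the paralogs SIN3A and SIN3B belong to a histone deacetylase corepressor complex, and MLL1 (KMT2A) is a histone H3 lysine 4 methyltransferase. Both lines of SAP30 and both lines of MLL1 were made with different guide RNAs, each edited line was a mixture of several single-cell clones, and all 7 groups grew in the same medium with no stimulus of the pathway named in the labels. Parental cells had not gone through guide delivery, puromycin selection or the picking of clones, so that these steps cannot be told apart from loss of the targeted gene.

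NF-kappaB is a family of dimeric transcription factors that IkB proteins hold in the cytoplasm. In the canonical arm, receptors of the TNF, IL-1 and Toll-like families activate the IKK kinases, IkB is degraded, and dimers of p50 (from NFKB1) and p65 (RELA) enter the nucleus. In the noncanonical arm, receptors such as CD40 stabilize the kinase NIK, and p100 (NFKB2) is processed to p52, the partner of RELB. NFKBIA, NFKBIE, TNFAIP3, NFKB2, RELB, TRAF1, CD40 and ICAM1 are themselves textbook targets of the pathway, which is known to be active without added stimulus in many triple-negative breast cancer lines.

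The factor binds the kappa B consensus, a motif of 10 bases. RefSeq promoter windows of GRCh38.p14, here the 250 bases before a transcription start, were given for 7 of the 10 members, and RELB, NFKBIE and CD40 had none. The consensus was searched for on both strands as GGGRNNYYCC, where R is A or G, Y is C or T and N is any base. Matches of both strands at the same bases were counted once, and matches that began at different bases were counted apart even where they overlapped. Some genes have several windows, and 5 of the 13 windows of these members held at least 1 match, in NFKB1, NFKB2, NFKBIA and TNFAIP3, against 3498 of all 35116 windows (9.96%). No match was found in the windows of RELA, TRAF1 and ICAM1. The ICAM1 window holds tggaaattcc, which departs from the pattern at its first base and so was not counted. Shown are TNFAIP3 (chr6:137867009-137867258, plus strand), which was called higher than in parental cells in 4 lines, NFKBIA (chr14:35404750-35404999, minus strand), the inhibitor with the most RNA, NFKB2 (chr10:102394328-102394577, plus strand), which rose in 3 lines, and ICAM1 (chr19:10270870-10271119, plus strand), which differed most between lines after CD40. Each is written 5′ to 3′ with matches in capitals.
TNFAIP3: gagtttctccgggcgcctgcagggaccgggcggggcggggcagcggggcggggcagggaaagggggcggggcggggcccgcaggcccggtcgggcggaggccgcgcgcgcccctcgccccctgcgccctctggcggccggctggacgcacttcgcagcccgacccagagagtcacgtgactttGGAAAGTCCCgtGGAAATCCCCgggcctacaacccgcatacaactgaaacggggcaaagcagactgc
NFKBIA: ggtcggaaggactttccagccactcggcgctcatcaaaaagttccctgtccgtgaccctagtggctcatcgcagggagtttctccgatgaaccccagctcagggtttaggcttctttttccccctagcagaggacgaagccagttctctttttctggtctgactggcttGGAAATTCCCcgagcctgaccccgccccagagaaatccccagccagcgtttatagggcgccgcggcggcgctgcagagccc
NFKB2: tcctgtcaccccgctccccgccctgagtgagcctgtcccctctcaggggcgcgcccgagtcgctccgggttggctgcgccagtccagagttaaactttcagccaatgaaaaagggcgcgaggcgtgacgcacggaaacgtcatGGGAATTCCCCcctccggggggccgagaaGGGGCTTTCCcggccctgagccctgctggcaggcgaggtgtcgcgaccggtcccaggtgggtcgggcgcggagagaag
ICAM1: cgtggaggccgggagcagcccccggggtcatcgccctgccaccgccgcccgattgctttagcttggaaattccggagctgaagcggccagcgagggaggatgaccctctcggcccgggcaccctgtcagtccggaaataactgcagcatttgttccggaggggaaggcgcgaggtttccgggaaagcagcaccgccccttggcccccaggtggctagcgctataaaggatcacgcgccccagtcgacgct
The matches of TNFAIP3 began 67 and 55 bases before the start and that of NFKBIA 81 bases before it, while those of NFKB2 began 107, 106 and 78 bases before it, the first 2 overlapping. A match of letters is not evidence of binding, and a window without one says nothing about the factor.

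Libraries held 18415036 to 23162682 recovered reads. Values are in TPM, which is relative to gene length and to all RNA of a library. The 2 libraries of SIN3A/3B-DKO2 stood apart from each other, their chi-square divided by its degrees of freedom being 7.66 against 1.46 to 3.65 in the other 6 groups, and a call of a member that changes without one of them is given with its value. SAP30 RNA was 78.9 and 82.8 TPM in parental cells and from 2.75 to 4.96 TPM in the 4 SAP30-KO libraries. KMT2A RNA was 56.7 and 49.0 TPM in parental cells and from 15.8 to 27.7 TPM in the 4 MLL1-KO libraries, and it was also lower in the SAP30-KO libraries, at 23.0 to 35.4 TPM. In the libraries labelled SIN3A/3B-DKO, SIN3B fell from 75.1 and 77.4 TPM to between 43.5 and 50.2 TPM. SIN3A RNA was not lower there, at 55.1 to 62.5 TPM against 43.1 and 45.4 TPM. The paper reports knockout of both proteins with immunoblots, and an RNA level alone does not test the loss of a protein. VIM, ZEB1, CD44 and AXL, which mark mesenchymal MDA-MB-231 cells, were abundant in all 14 libraries, with VIM between 5741 and 8805 TPM, and the steroid receptor genes ESR1 and PGR did not pass 0.191 TPM.

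All 10 members were among the 13540 genes tested, so that no member was lost to the filter on low values. A gene was called when limma gave a Benjamini-Hochberg adjusted p under 0.05 over all genes tested and the difference of log2(TPM + 0.5) was at least 1.5-fold. Because 0.5 is added, folds of low genes are understated on this scale. In SAP30-KO1, 1 member (CD40) was called lower and 3 higher (NFKB2, RELB and TRAF1), where 7.86% and 7.8% of all genes were called. In SAP30-KO2, 1 was lower (CD40) and 2 higher (NFKB2 and TRAF1), against 8.12% and 7.44% of all genes. In SIN3A/3B-DKO1, 1 was lower (CD40) and 5 higher (NFKB2, RELB, TNFAIP3, TRAF1 and ICAM1), against 8.66% and 7.76%. In SIN3A/3B-DKO2, 1 was lower (CD40) and 2 higher (TNFAIP3 and TRAF1), against 7.56% and 6%. In MLL1-KO1, 2 were lower (CD40 and ICAM1) and 1 higher (TNFAIP3), against 16.3% and 6.89%. In MLL1-KO2, the same 2 were lower and the same 1 higher, against 14.9% and 10.2%. The lower counts of 1 or 2 in 10, and the higher counts of 1 in 10 in the MLL1-KO lines, are within 1 gene of these backgrounds. The higher counts of 2 to 5 in 10 in the lines edited at SAP30 or SIN3A/3B lie above them by more than 1 gene, with no test made of these shares. The members were chosen with earlier results of these data known, so that nothing is concluded from this excess.

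All 6 comparisons share the same 2 parental libraries. The median log2 difference of the 10 members was 0.59 in SIN3A/3B-DKO1 but 0.08 in SIN3A/3B-DKO2. It was 0.41 in SAP30-KO1 but 0.24 in SAP30-KO2, and 0.02 in MLL1-KO1 but 0.37 in MLL1-KO2, and that of all genes tested lay between -0.09 and 0.03. Scaling by quantiles moved the median of all genes in MLL1-KO1 by 0.13, and the genes called there went from 2210 lower and 933 higher to 1545 lower and 1451 higher. Under it the members called in MLL1-KO1 remained CD40, ICAM1 and TNFAIP3. Between lines of 1 genotype, limma called 0 members between SAP30-KO1 and SAP30-KO2, where 0.148% of all genes were called. There 4 members had an unadjusted p under 0.05 (CD40, NFKBIA, NFKBIE and ICAM1), and voom on recovered reads called 1 (CD40). With limma, 3 members differed between SIN3A/3B-DKO1 and SIN3A/3B-DKO2 (CD40, RELB and ICAM1, 2.23%), and 2 differed between MLL1-KO1 and MLL1-KO2 (TRAF1 and ICAM1, 10.4%). Between genotypes, each the mean of its lines, 3 members differed between SAP30-KO and SIN3A/3B-DKO (CD40, RELA and ICAM1, 7.47%). Between MLL1-KO and SAP30-KO 5 differed (CD40, TRAF1, RELA, NFKBIE and ICAM1, 19.8%), and between MLL1-KO and SIN3A/3B-DKO 3 (CD40, TRAF1 and ICAM1, 19.9%). The tests between genotypes take their SE from the spread between libraries of a line and leave out the spread between lines.

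**Figure D1:**
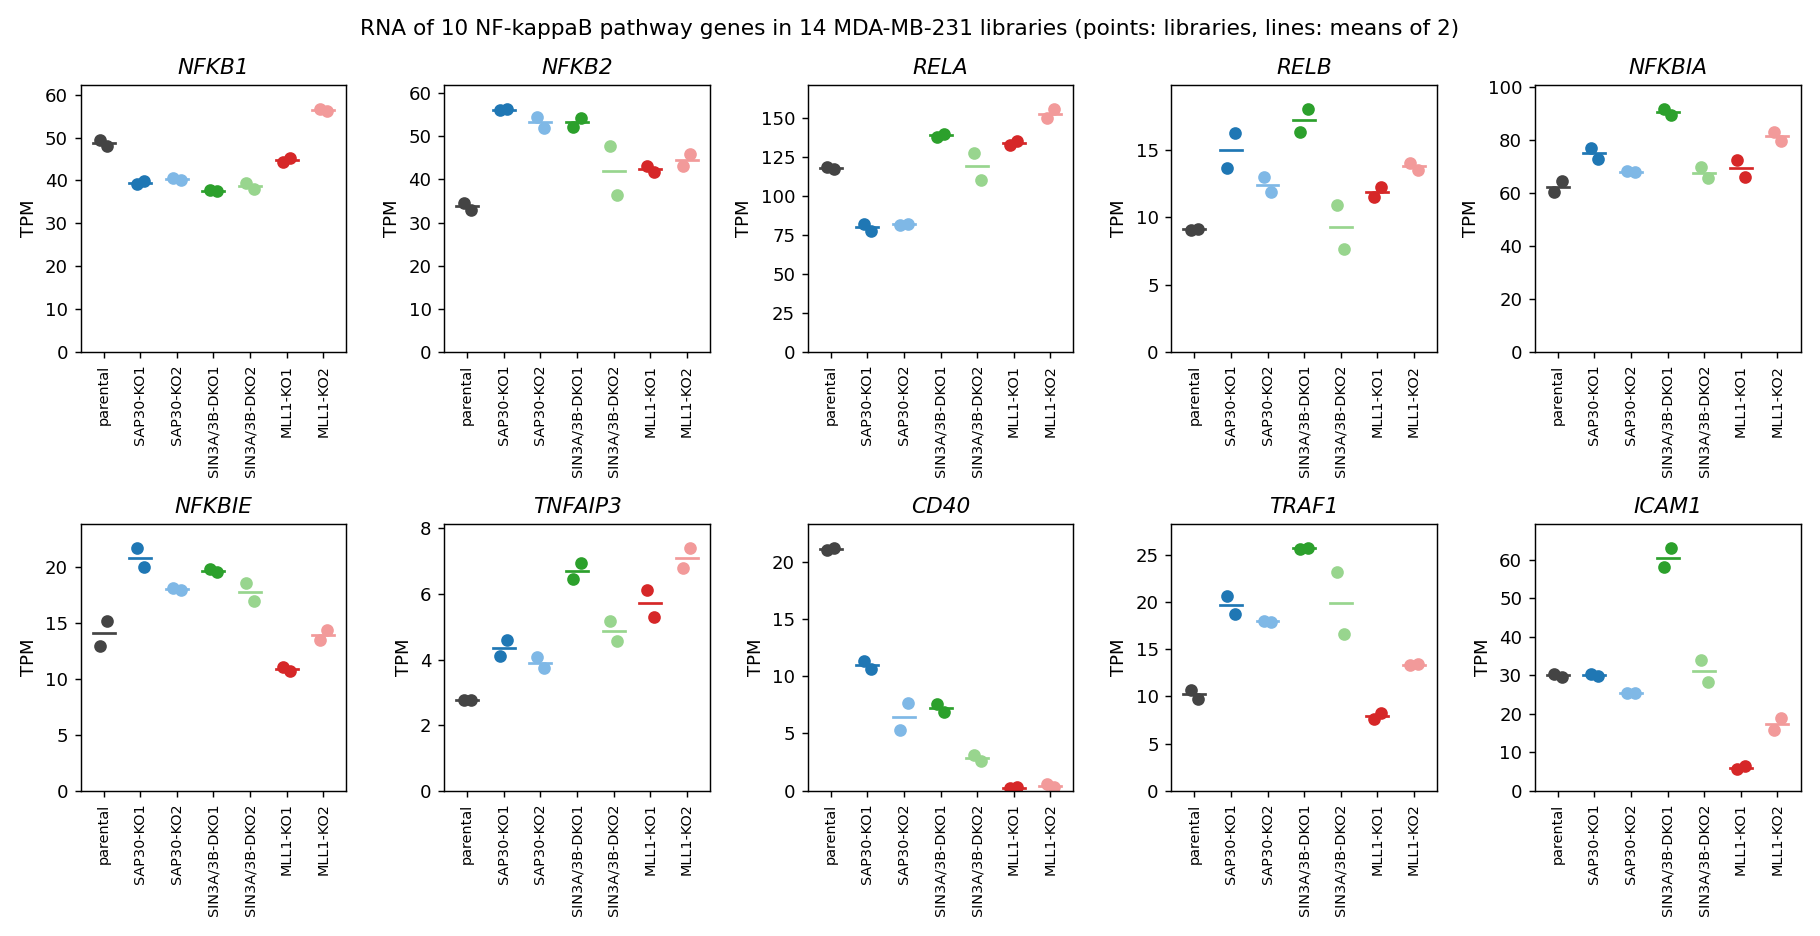
TPM of the 10 members in each of the 14 libraries (points) by group, with a line at the mean of the 2 libraries of a group and each vertical axis starting at 0. CD40 is highest in the parental libraries and near 0 in the MLL1-KO libraries, where it lies between 0.228 and 0.548 TPM, while ICAM1 ranges from 5.63 TPM in MLL1-KO1 to 63.1 TPM in SIN3A/3B-DKO1.

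CD40, a TNF receptor family member best known from B cells and dendritic cells and also found on carcinoma cells, was the member that fell in all 6 lines, and it fell most in the MLL1-KO lines. The gene lies at chr20:44746910-44758502 (GRCh37, plus strand). Parental libraries held 21.0 and 21.2 TPM of it. It was 11.4 and 10.6 TPM in SAP30-KO1 and 5.33 and 7.63 TPM in SAP30-KO2. SIN3A/3B-DKO1 held 7.58 and 6.88 TPM, and SIN3A/3B-DKO2 3.16 and 2.63 TPM. In MLL1-KO1 it was 0.228 and 0.308 TPM, and in MLL1-KO2 0.548 and 0.345 TPM. Every edited library lay below both parental libraries, and the 4 MLL1-KO libraries lay below all others. As the libraries are bulk RNA, fewer cells with CD40 RNA and less of it per cell cannot be told apart.

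These levels rest on 244 and 240 reads in the parental libraries and on 3, 4, 6 and 4 reads in the MLL1-KO libraries. Scaled for depth, the parental reads were 1.92 times those of SAP30-KO1 (exact 95% interval 1.65 to 2.24, which covers counting error only, as do the others), 3.26 times those of SAP30-KO2 (2.74 to 3.9), 2.92 times those of SIN3A/3B-DKO1 (2.46 to 3.46), 7.28 times those of SIN3A/3B-DKO2 (5.72 to 9.37), 78.8 times those of MLL1-KO1 (38.0 to 197.0) and 47.6 times those of MLL1-KO2 (25.7 to 99.9). On the log2(TPM + 0.5) scale, with an SE of 0.16 in every line, CD40 fell by 0.91 in SAP30-KO1 (limma adjusted p = 0.0008), by 1.65 in SAP30-KO2 (limma adjusted p = 1.1e-05), by 1.48 in SIN3A/3B-DKO1 (limma adjusted p = 2.3e-05), by 2.67 in SIN3A/3B-DKO2 (limma adjusted p = 4.1e-07), by 4.82 in MLL1-KO1 (limma adjusted p = 1.5e-09) and by 4.52 in MLL1-KO2 (limma adjusted p = 1.8e-09). The size in the MLL1-KO lines depends on the constant added, and with 0.1 in its place the difference in MLL1-KO1 was -5.86.

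The order of CD40 levels was parental, SAP30-KO1, SIN3A/3B-DKO1, SAP30-KO2, SIN3A/3B-DKO2, MLL1-KO2 and MLL1-KO1. Between SAP30-KO1 and SAP30-KO2 the log2 difference was 0.74 (95% interval 0.38 to 1.099, limma adjusted p = 0.10) and was not called. Between SIN3A/3B-DKO1 and SIN3A/3B-DKO2 it was 1.19 (0.83 to 1.55, adjusted p = 0.0013), although in a fit of these 4 libraries alone the adjusted p was 0.086. The MLL1-KO lines differed by -0.30 (-0.66 to 0.07, limma adjusted p = 0.18), which at 3 to 6 reads per library is not detectable at this depth. Averaged over lines, CD40 was higher in SAP30-KO than in SIN3A/3B-DKO by 0.80 ± 0.12 (limma adjusted p = 0.00021), with overlapping libraries. This SE leaves out the spread between lines, which within these genotypes was 0.74 and 1.19. CD40 was lower in MLL1-KO than in SAP30-KO by a log2 difference of -3.39 ± 0.12 (limma adjusted p = 7.8e-10) and than in SIN3A/3B-DKO by -2.59 ± 0.12 (limma adjusted p = 6e-09).

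Markers of other cell types that carry CD40 were measured beside it. Of the 6 B cell and myeloid markers in the table, ITGAX was at 0 in all 14 libraries and CD79A did not pass 0.221 TPM. Their summed level, nearly all of it CD68, was 179.4 and 183.7 TPM in parental cells, between 234.8 and 291.0 TPM with SAP30 or SIN3A/3B edited, 159.9 and 169.2 TPM in MLL1-KO1, and 220.6 and 231.4 TPM in MLL1-KO2. PTPRC was 0.413 and 0.366 TPM in parental cells, 0.113 to 0.313 TPM in the SAP30-KO libraries, 0.483 and 0.603 TPM in SIN3A/3B-DKO1, 0.256 and 0.344 TPM in SIN3A/3B-DKO2, and between 0.0165 and 0.0996 TPM in the MLL1-KO libraries. CD14 was 1.90 and 2.31 TPM in parental cells, 3.18 to 3.98 TPM in the SAP30-KO libraries, 1.71 to 2.54 TPM where SIN3A/3B was edited, 0.679 and 0.827 TPM in MLL1-KO1, and 1.16 and 1.31 TPM in MLL1-KO2. Of the 3 endothelial markers CDH5 did not pass 0.0337 TPM, and their summed level was 1.64 to 4.03 TPM. Of the 5 genes listed as low or off in this cell line, ERBB2 and EPCAM were not. The summed level of the list was 61.9 and 63.3 TPM in parental cells and lay between 32.3 and 37.6 TPM in the 12 edited libraries, where CD40 ranged from 0.228 to 11.4 TPM. Most of it was ERBB2, at 41.5 and 42.8 TPM in parental cells and 21.9 to 29.03 TPM in edited ones. The epithelial gene CDH1 was 1.07 and 1.25 TPM in parental cells and at most 0.282 TPM in edited ones, and EPCAM was 19.2 and 19.1 TPM against 5.33 to 12.6 TPM. The part of these markers in the CD40 result was not tested.

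Among 3615 tested genes whose group means spanned at least 1 on the log2 scale, those with the pattern most like CD40 over the 7 group means included IGFBP1 (Pearson r = 0.994), TNS4 (0.987), APOL3 (0.976) and CACNG7 (0.975), and 42 genes had r over 0.95. These correlations describe 7 points that share their libraries, so that no p is given. IGFBP1, a secreted binder of insulin-like growth factors, had group means of 213.6 TPM in parental cells, 159.7 and 143.4 TPM in the first and the second SAP30-KO line, 144.1 and 119.8 TPM in the SIN3A/3B-DKO pair, and 79.7 and 83.3 TPM in the MLL1-KO pair. TNS4, a focal adhesion protein gene, went from 2.89 TPM in parental cells to 0.363 and 0.323 TPM in the MLL1-KO lines.

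**Figure D2:**
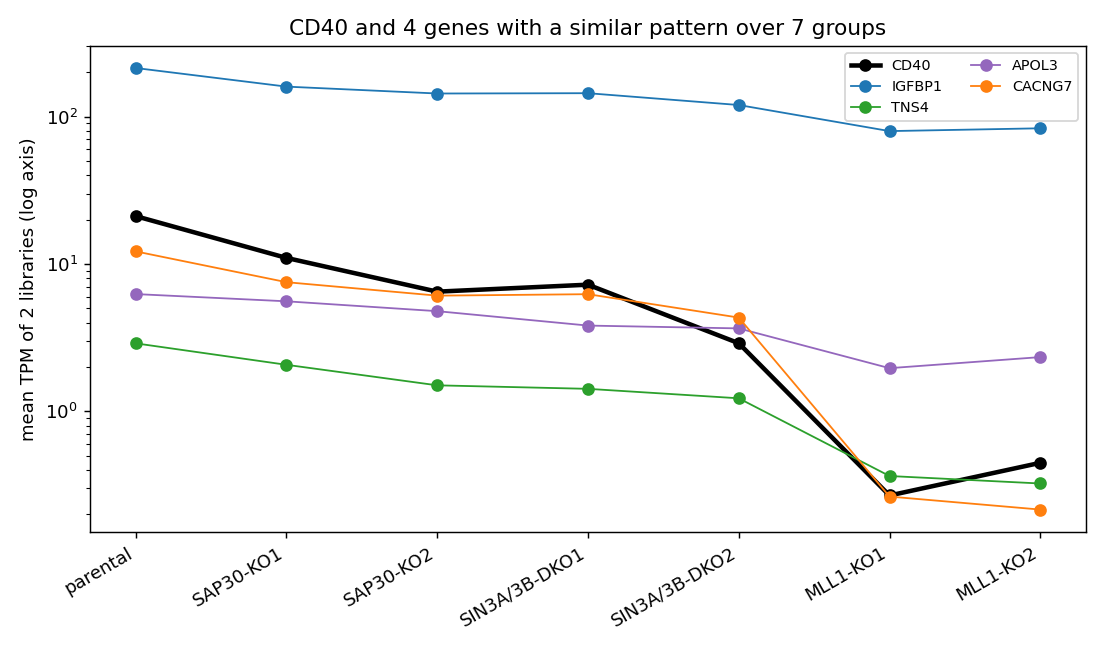
Mean TPM of 2 libraries (log axis) in the 7 groups for CD40 (thick line) and 4 of the genes with the highest correlation with it. CD40, TNS4 and CACNG7 fall below 1 TPM in both MLL1-KO lines, while IGFBP1 stays between 79.7 and 213.6 TPM.

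TRAF1, an adaptor of TNF receptors that binds TRAF2, moved the opposite way to CD40 in 4 lines. The gene lies at chr9:123664671-123691451 (GRCh37, minus strand). TRAF1 was 10.7 and 9.77 TPM in parental cells, 20.7 and 18.7 TPM in SAP30-KO1, 18.1 and 17.9 TPM in SAP30-KO2, 25.7 TPM in each library of SIN3A/3B-DKO1, 23.2 and 16.6 TPM in SIN3A/3B-DKO2, 7.56 and 8.27 TPM in MLL1-KO1 and 13.3 and 13.4 TPM in MLL1-KO2. All 8 libraries edited at SAP30 or SIN3A/3B lay above the parental ones, MLL1-KO1 lay below them and MLL1-KO2 above. On the log2 scale TRAF1 rose by 0.91 ± 0.12 (SE) in SAP30-KO1 (limma adjusted p = 0.00011) and by 0.79 ± 0.12 in SAP30-KO2 (limma adjusted p = 0.00031). It rose by 1.29 ± 0.12 in SIN3A/3B-DKO1 (limma adjusted p = 8e-06) and by 0.91 ± 0.12 in SIN3A/3B-DKO2 (limma adjusted p = 0.00012). The differences of -0.35 in MLL1-KO1 and 0.37 in MLL1-KO2 stayed under the fold minimum (limma adjusted p of 0.029 and 0.022). Those 2 lines differed from each other by -0.72 ± 0.12 (limma adjusted p = 0.0008). SIN3A/3B-DKO1 was above SIN3A/3B-DKO2 by 0.38 ± 0.12, which was not called (limma adjusted p = 0.071), but without the first library of SIN3A/3B-DKO2 this was 0.61 and called (limma adjusted p = 0.0013). The mean of the MLL1-KO lines was below that of SAP30-KO by a log2 difference of -0.84 ± 0.09 (limma adjusted p = 6.6e-06) and below that of SIN3A/3B-DKO by -1.09 ± 0.09 (limma adjusted p = 7.6e-07).

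Of the canonical subunits, NFKB1 varied little and RELA separated the SAP30-KO lines from the others. NFKB1 (chr4:103422487-103538459, GRCh37, plus strand) was 49.3 and 47.9 TPM in parental cells, 37.4 to 40.6 TPM in the 8 libraries edited at SAP30 or SIN3A/3B, 44.4 and 45.3 TPM in MLL1-KO1, and 56.6 and 56.3 TPM in MLL1-KO2. No library of any edited line overlapped the parental ones. The log2 differences from -0.37 in SIN3A/3B-DKO1 to 0.21 in MLL1-KO2 were beyond the spread between libraries, with limma adjusted p from 1.3e-05 to 0.02, but all were under 1.5-fold and none was called.

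RELA, which encodes the p65 subunit with the transactivation domain, had the highest TPM of the 10 members in every library. It lies at chr11:65421070-65430561 (GRCh37, minus strand), opposite the start of the noncoding gene RELA-DT, whose reads may be included if counting did not use strand. RELA was 118.5 and 117.5 TPM in parental cells, 82.3 and 77.9 TPM in SAP30-KO1, 81.9 and 82.0 TPM in SAP30-KO2, 138.2 and 139.9 TPM in SIN3A/3B-DKO1, 128.0 and 110.5 TPM in SIN3A/3B-DKO2, 133.0 and 135.4 TPM in MLL1-KO1 and 150.0 and 155.9 TPM in MLL1-KO2. The 4 SAP30-KO libraries lay below all 10 others. The log2 differences from parental of -0.56 ± 0.06 and -0.52 ± 0.06 in SAP30-KO1 and SAP30-KO2 were just under 1.5-fold and not called, with limma adjusted p of 1.4e-05 and 2.1e-05. RELA in SAP30-KO was below SIN3A/3B-DKO by a log2 difference of -0.66 ± 0.04 (limma adjusted p = 3.2e-07), and in MLL1-KO it was above SAP30-KO by 0.82 ± 0.04 (limma adjusted p = 1.4e-08).

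The genes beside RELA on chromosome 11 moved with it. The median log2 difference of the 51 genes centred on RELA was -0.44 in SAP30-KO1 and -0.42 in SAP30-KO2, while in MLL1-KO1 it was 0.08, in MLL1-KO2 0.22, in SIN3A/3B-DKO1 0.19 and in SIN3A/3B-DKO2 0.09. With this running median subtracted from each library, the RELA difference of SAP30-KO from SIN3A/3B-DKO was -0.09 and that of MLL1-KO from SAP30-KO was 0.24, and neither was called. Around the other 9 members the same medians lay between -0.23 and 0.31 in the 6 lines, and around CD40 they lay between -0.04 and 0.10. For NFKB1 the median was 0.28 in MLL1-KO2, and with it subtracted the NFKB1 difference there went from 0.21 to -0.07 and that of MLL1-KO1 from MLL1-KO2 from -0.33 to 0.06. For NFKBIA they were 0.31 in SAP30-KO1 and 0.23 in SAP30-KO2, of about the size of its own differences of 0.27 and 0.12.

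**Figure D3:**
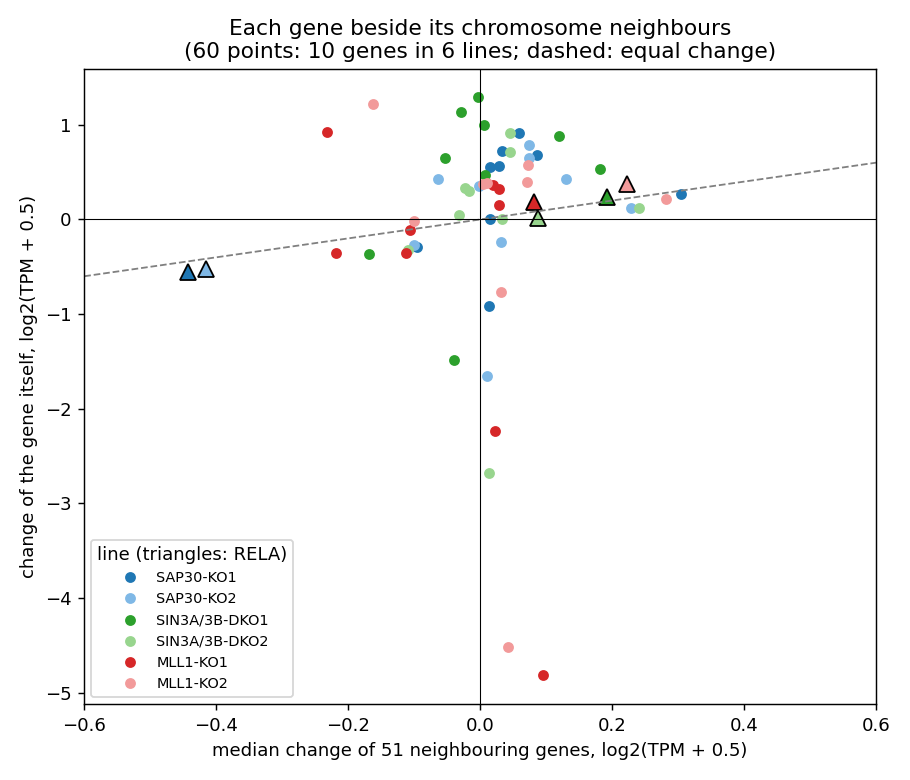
Log2 difference from parental of each member (vertical axis) against the median of the 51 genes centred on it along the chromosome (horizontal axis), 1 point for each of 10 genes in 6 lines, with triangles for RELA and a dashed line where both are equal. The SAP30-KO triangles lie close to the dashed line at -0.44 and -0.42, while the lowest points, CD40 in the MLL1-KO lines, have neighbour medians near 0.

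The noncanonical subunits NFKB2 and RELB were above parental in most edited libraries. NFKB2 (chr10:104153867-104162281, GRCh37, plus strand), whose promoter window with 3 matches is printed above, was 34.6 and 32.8 TPM in parental cells, 56.0 and 56.3 TPM in SAP30-KO1, 54.6 and 51.9 TPM in SAP30-KO2, 52.2 and 54.3 TPM in SIN3A/3B-DKO1, 47.8 and 36.3 TPM in SIN3A/3B-DKO2, 43.1 and 41.8 TPM in MLL1-KO1 and 43.1 and 45.8 TPM in MLL1-KO2. All 12 edited libraries exceeded both parental ones. NFKB2 rose by 0.73 ± 0.10 (SE, log2) in SAP30-KO1 (limma adjusted p = 0.0001), by 0.65 ± 0.10 in SAP30-KO2 (limma adjusted p = 0.00022) and by 0.65 ± 0.10 in SIN3A/3B-DKO1 (limma adjusted p = 0.00021). The differences of 0.33 in MLL1-KO1, 0.39 in MLL1-KO2 and 0.30 in SIN3A/3B-DKO2 were not called (limma adjusted p 0.013, 0.0044 and 0.024).

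RELB (chr19:45504719-45541450, GRCh37, plus strand) was the least abundant of the 4 Rel subunit genes described here. It was 9.05 and 9.16 TPM in parental cells, 13.7 and 16.3 TPM in SAP30-KO1, 12.99 and 11.9 TPM in SAP30-KO2, 16.4 and 18.0 TPM in SIN3A/3B-DKO1, 10.9 and 7.68 TPM in SIN3A/3B-DKO2, 11.5 and 12.3 TPM in MLL1-KO1 and 14.02 and 13.5 TPM in MLL1-KO2. SIN3A/3B-DKO2 was the only line whose libraries lay on both sides of the parental ones. RELB rose by 0.68 ± 0.14 in SAP30-KO1 (limma adjusted p = 0.0016) and by 0.88 ± 0.14 in SIN3A/3B-DKO1 (limma adjusted p = 0.00027). Without the second library of SAP30-KO1 its difference was 0.56 and no longer called. In MLL1-KO2 RELB was 0.57 above parental, just under 1.5-fold (limma adjusted p = 0.0035). It was called there with a constant of 0.1, with quantile or median-ratio scaling and with voom on recovered reads (0.59 to 0.66). The differences of 0.43 in SAP30-KO2, 0.365 in MLL1-KO1 and 0.01 in SIN3A/3B-DKO2 were not called (limma adjusted p 0.022, 0.038 and 0.97). SIN3A/3B-DKO1 exceeded SIN3A/3B-DKO2 by 0.87 ± 0.14 (limma adjusted p = 0.0026), but with an adjusted p of 0.17 when only their 4 libraries were fitted.

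**Figure D4:**
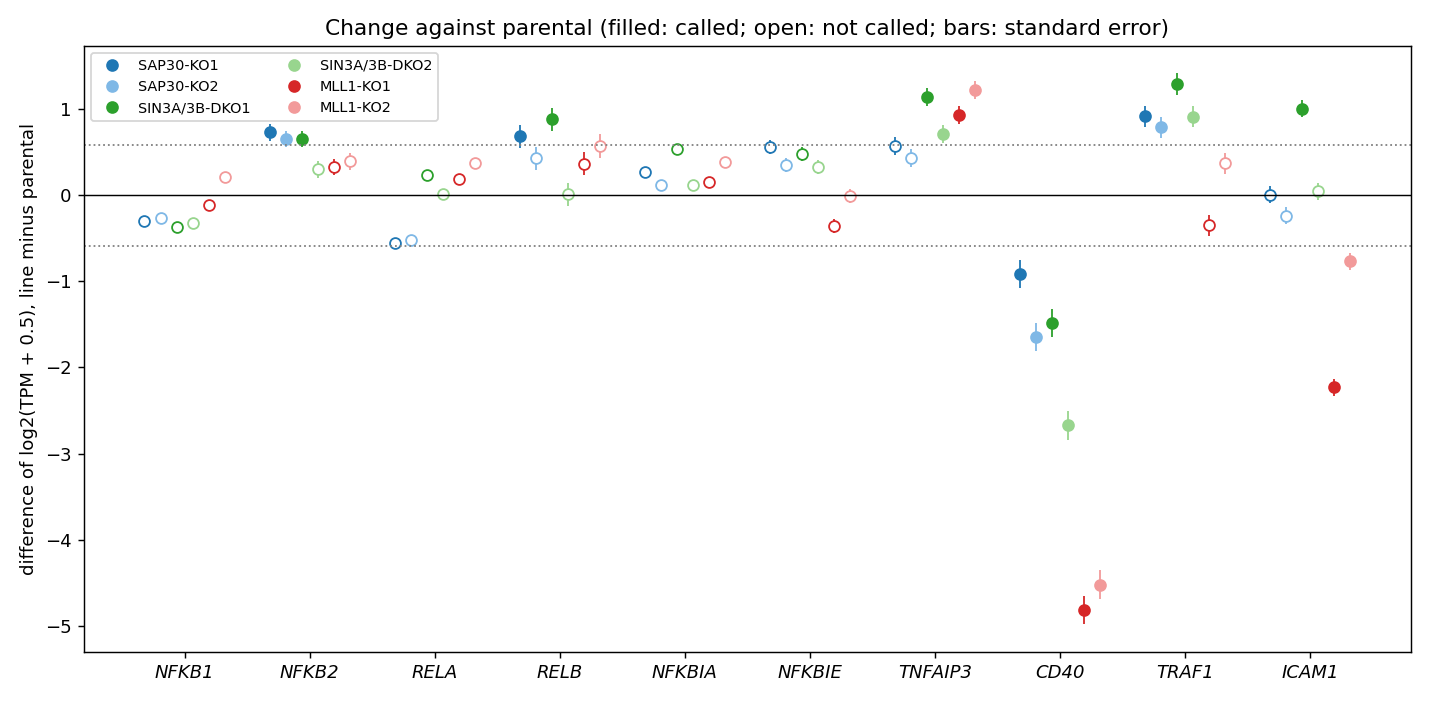
Difference of log2(TPM + 0.5) between each edited line and parental cells for the 10 members, with bars for 1 standard error, filled points for calls, open points for values not called and dotted lines at 1.5-fold. CD40 is the member with filled points below 0 in all 6 lines, from -0.91 to -4.82, and TNFAIP3, NFKB2, NFKBIA and RELB have no value below 0.

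Among the inhibitors, TNFAIP3 was higher in every edited line and passed the call in 4. It encodes A20, a ubiquitin-editing enzyme that shuts off signalling upstream of IKK, and lies at chr6:138188351-138204451 (GRCh37, plus strand), with WAKMAR2 on the opposite strand. As the strand setting of the counting is not given, reads of WAKMAR2 may be included. TNFAIP3 was 2.76 and 2.77 TPM in parental cells, 4.11 and 4.60 TPM in SAP30-KO1, 4.07 and 3.74 TPM in SAP30-KO2, 6.46 and 6.93 TPM in SIN3A/3B-DKO1, 5.16 and 4.56 TPM in SIN3A/3B-DKO2, 6.14 and 5.31 TPM in MLL1-KO1 and 6.79 and 7.40 TPM in MLL1-KO2. All 12 edited libraries lay above the parental ones. TNFAIP3 rose by 1.14 ± 0.11 in SIN3A/3B-DKO1, 0.71 ± 0.11 in SIN3A/3B-DKO2, 0.93 ± 0.11 in MLL1-KO1 and 1.22 ± 0.11 in MLL1-KO2 (limma adjusted p of 6.6e-06, 0.00023, 2e-05 and 2e-06, in this order). In SAP30-KO1 and SAP30-KO2 it was 0.57 and 0.43 above parental, under the fold minimum (limma adjusted p 0.001 and 0.0058). The value in SAP30-KO1 passed the minimum with a constant of 0.1 in place of 0.5, with quantile scaling and with voom on recovered reads, at 0.63, 0.59 and 0.67, and without the first library of SAP30-KO1, at 0.64. TNFAIP3 in MLL1-KO was above SAP30-KO by 0.57 ± 0.08 (limma adjusted p = 4.3e-05), just under the minimum, and passed it without any 1 of 4 libraries (0.60 to 0.62) and with quantile scaling (0.77).

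NFKBIA and NFKBIE encode IkBalpha and IkBepsilon, which bind Rel dimers, and limma called neither against parental. NFKBIA (chr14:35870285-35873955, GRCh37, minus strand) was 60.5 and 64.4 TPM in parental cells and 65.7 to 91.7 TPM in the 12 edited libraries, all above both parental ones, with the highest values in SIN3A/3B-DKO1 (91.7 and 89.6 TPM). The largest of its differences was 0.53 ± 0.05 in SIN3A/3B-DKO1 (limma adjusted p = 1.2e-05), under 1.5-fold. NFKBIE (chr6:44225903-44233525, GRCh37, minus strand) was 12.9 and 15.2 TPM in parental cells, 21.7 and 20.0 TPM in SAP30-KO1, 18.1 and 18.0 TPM in SAP30-KO2, 19.8 and 19.5 TPM in SIN3A/3B-DKO1, 18.6 and 16.9 TPM in SIN3A/3B-DKO2, 11.1 and 10.7 TPM in MLL1-KO1, and 13.4 and 14.4 TPM in MLL1-KO2. Libraries edited at SAP30 or SIN3A/3B lay above the parental ones, those of MLL1-KO1 below them and those of MLL1-KO2 between them. Its difference of 0.55 ± 0.08 in SAP30-KO1 (limma adjusted p = 0.0002) was just under 1.5-fold, and it was called by voom on recovered reads (0.59, adjusted p = 2.2e-05) and by limma without the second parental library (0.67) or the second of SAP30-KO1 (0.61). In SIN3A/3B-DKO1 its 0.47 ± 0.08 (limma adjusted p = 0.00056) was likewise called without the second parental library (0.59). Its mean in MLL1-KO was below that in SAP30-KO by a log2 difference of -0.64 ± 0.06 (limma adjusted p = 2.2e-06). That call was lost under quantile scaling (-0.50), median-ratio scaling (-0.53) and subtraction of neighbouring genes (-0.47). NFKBIE in MLL1-KO was also below SIN3A/3B-DKO by -0.58 ± 0.06 (limma adjusted p = 4.5e-06), just under 1.5-fold, and was called with a constant of 0.1 (-0.60) and without any 1 of 4 libraries, from -0.59 to -0.62. The 51 genes around NFKBIE had medians of -0.22 and -0.10 in MLL1-KO1 and MLL1-KO2.

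ICAM1, a target gene that encodes the adhesion ligand of leukocyte integrins, fell in both MLL1-KO lines and rose in SIN3A/3B-DKO1. It lies at chr19:10381769-10397291 (GRCh37, plus strand), with the antisense genes ICAM4-AS1 and LIMASI on the other strand, and since it is not given in the sources used here whether counting used strand, their reads may be included. ICAM1 was 30.3 and 29.7 TPM in parental cells, 30.2 and 29.9 TPM in SAP30-KO1, 25.3 and 25.4 TPM in SAP30-KO2, 58.1 and 63.1 TPM in SIN3A/3B-DKO1, 34.1 and 28.1 TPM in SIN3A/3B-DKO2, 5.63 and 6.37 TPM in MLL1-KO1 and 15.9 and 19.0 TPM in MLL1-KO2. The 4 MLL1-KO libraries were the lowest and the 2 of SIN3A/3B-DKO1 the highest, while SAP30-KO1 and SIN3A/3B-DKO2 overlapped the parental ones. ICAM1 fell by 2.23 ± 0.10 in MLL1-KO1 (limma adjusted p = 1.2e-08) and by 0.77 ± 0.10 in MLL1-KO2 (limma adjusted p = 4.9e-05), and it rose by 1.001 ± 0.10 in SIN3A/3B-DKO1 (limma adjusted p = 1.1e-05). Its differences were 0.00 (95% interval -0.22 to 0.22) in SAP30-KO1, -0.24 (-0.46 to -0.02) in SAP30-KO2 and 0.04 (-0.18 to 0.27) in SIN3A/3B-DKO2, none of them called.

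Lines of the same genotype differed at ICAM1, a spread that the SE and p between genotypes leave out. MLL1-KO1 was below MLL1-KO2 by a log2 difference of -1.46 ± 0.10 (limma adjusted p = 1.2e-06), and SIN3A/3B-DKO1 was above SIN3A/3B-DKO2 by 0.96 ± 0.10 (limma adjusted p = 0.00023), where the fit of only those 4 libraries gave an adjusted p of 0.094. The mean of MLL1-KO was below that of SAP30-KO by a log2 difference of -1.38 ± 0.07 (limma adjusted p = 1.9e-08) and below that of SIN3A/3B-DKO by -2.02 ± 0.07 (limma adjusted p = 8.2e-10). SAP30-KO was below SIN3A/3B-DKO by -0.64 ± 0.07 (limma adjusted p = 2.7e-05), a difference carried by SIN3A/3B-DKO1, since the libraries of SIN3A/3B-DKO2 overlapped those of SAP30-KO1, and it was -0.57 and not called without the first library of SIN3A/3B-DKO2. Neighbouring genes had medians between -0.03 and 0.03 around ICAM1.

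Other genes of the pathway were counted in 6 lists. Of 82 genes, 80 were in the table and 66 were tested. Of the 66, in SAP30-KO1 and SAP30-KO2, 5 and 7 were called lower (7.58% and 10.6%) and 6 and 4 higher (9.09% and 6.06%). For the SIN3A/3B-DKO pair, 6 and 8 were lower (9.09% and 12.1%) and 8 and 4 higher (12.1% and 6.06%). In MLL1-KO1 and MLL1-KO2, 6 and 7 were lower (9.09% and 10.6%) and 11 in each were higher (16.7%). The higher genes include IL1A in both lines and MMP9 in MLL1-KO2. Both genes passed the low-value filter only through MLL1-KO2, so that nothing is concluded from these higher shares. In the MLL1-KO lines the lower shares lie under those of all genes tested given above and the higher shares above them. The higher share in SIN3A/3B-DKO1 and the lower share in SIN3A/3B-DKO2 also lie above them, the other shares are closer, and no test was made of these shares. The lists, too, were chosen with earlier results of these data known. The median log2 difference over the 66 genes was between -0.02 and 0.11 in the 6 lines.

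Receptors were the list with calls shared by every line. TNFRSF1B, which encodes TNF receptor 2, fell in all 6, from 8.82 and 9.17 TPM in parental cells to between 0.764 and 0.983 TPM with SAP30 edited, between 1.51 and 1.68 TPM with SIN3A/3B edited, 0.234 and 0.474 TPM in MLL1-KO1, and 1.97 and 2.73 TPM in MLL1-KO2. Its log2 differences were between -1.75 in MLL1-KO2 and -3.49 in MLL1-KO1, with limma adjusted p from 2.2e-08 to 4.9e-06. IL1RAP, the shared chain of IL-1 family receptors, fell in all 6 lines as well, by 0.66 to 0.93, from 13.1 and 12.1 TPM to between 6.07 and 8.56 TPM. TNFRSF11A, the receptor RANK, was 11.3 and 10.9 TPM in parental cells and fell to between 5.10 and 5.96 TPM in the 4 SAP30-KO libraries and to 7.02 and 7.21 TPM in MLL1-KO1, while in the SIN3A/3B-DKO libraries it was 12.4 to 13.4 TPM and not called. TNFRSF21, or death receptor 6, rose in MLL1-KO1 and MLL1-KO2 from 144.8 and 146.5 TPM to 251.1 and 240.8 TPM and to 356.8 and 370.6 TPM, and was 98.8 to 117.7 TPM and not called in the other edited lines.

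Only 4 of 10 ligands in the table were tested, the rest being too low. IL1B was 2.13 and 2.002 TPM in parental cells and rose in MLL1-KO1, to 13.8 and 20.3 TPM, by a log2 difference of 2.75 ± 0.27 (limma adjusted p = 5.4e-06). It fell in both SAP30-KO lines, with limma adjusted p of 0.045 and 0.0033, and in SIN3A/3B-DKO2. IL1A, at most 0.38 TPM in parental cells, rose in the MLL1-KO lines to between 0.880 and 1.16 TPM. It reached 1 TPM only in MLL1-KO2, so it was tested only because of a group where it is high. Nothing is concluded from its calls. TNFSF10, which encodes the death ligand TRAIL, fell in MLL1-KO1 and MLL1-KO2 by 2.02 and 2.27 on the log2 scale, from 5.08 and 4.19 TPM to at most 0.853 TPM, and also in SIN3A/3B-DKO1.

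Of the 22 kinases and adaptors, all tested, 1 or 2 were called in each direction in each line, where 6% to 16.3% of all genes were called. IKBKG, the regulatory subunit NEMO of IKK, rose in all 4 lines edited at SAP30 or SIN3A/3B and in MLL1-KO2, from 3.54 and 3.58 TPM to between 5.17 and 7.73 TPM in those 10 libraries. Its reads may be shared with a near-identical pseudogene, so that its level is uncertain. After subtraction of the neighbour median, its differences in these 5 lines were 0.02 to 0.36 and none was called. IRAK1, a kinase of IL-1 and Toll-like receptor signalling, rose in MLL1-KO1 and MLL1-KO2 by 0.64 and 0.87, which became 0.13 and 0.38, not called, with neighbours subtracted. The ubiquitin ligase genes BIRC2 and BIRC3 lie side by side, and BIRC2 fell in both SAP30-KO lines by 0.88 and 0.90 and in MLL1-KO1 by 0.72. BIRC3 fell in both MLL1-KO lines by 1.49 and 1.07 and in SAP30-KO2 by 0.74. The 51 genes around BIRC2 had medians of -0.75, -0.79 and -0.92 in SAP30-KO1, SAP30-KO2 and MLL1-KO1. BIRC2 itself fell in the SAP30-KO lines by only a little more than these medians. Around BIRC3 the medians were -0.92 in MLL1-KO1 and -0.38 in MLL1-KO2, beside its own falls of 1.49 and 1.07. With neighbours subtracted, BIRC2 in MLL1-KO1 stood at 0.20 and BIRC3 in SAP30-KO2 at 0.05. Of the 5 other Rel and IkB genes, only BCL3, a coactivator of p50 and p52, was called, lower in SIN3A/3B-DKO2 (13.1 and 10.5 TPM against 23.4 and 19.8 TPM).

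Of 7 negative regulators tested, limma called 1 or 2 higher in each of the SIN3A/3B-DKO and MLL1-KO lines. There 6% to 10.2% of all genes were called higher, and no test was made of these counts. In SAP30-KO1 and SAP30-KO2, where limma called 7.44% to 8.12% of all genes in each direction, limma and voom called 0 negative regulators. Of these, 7 and 5 had an unadjusted limma p under 0.05 with changes under 1.5-fold. ZC3H12A, an RNase that degrades inflammatory mRNAs, rose in MLL1-KO1 and MLL1-KO2 from 2.20 and 2.58 TPM to between 4.29 and 6.23 TPM, and also in SIN3A/3B-DKO1. CYLD, a deubiquitinase, rose in both SIN3A/3B-DKO lines by 0.60 and 0.64, from 15.5 and 14.8 TPM to between 22.5 and 24.2 TPM.

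Target genes other than the members were called in both directions. IL6 rose in all 4 lines edited at SAP30 or SIN3A/3B, from 4.46 TPM in both parental libraries to between 7.28 and 15.1 TPM, and fell in MLL1-KO2 to 1.12 and 1.999 TPM. IL8, the neutrophil chemokine CXCL8, rose in the SIN3A/3B-DKO pair by 2.40 ± 0.12 and 1.76 ± 0.12 (limma adjusted p = 1e-07 and 1e-06), from 18.9 and 17.8 TPM to between 52.5 and 98.8 TPM, and it fell in SAP30-KO2 to 10.7 and 10.6 TPM. CXCL1 rose in both MLL1-KO lines, from 3.50 and 5.03 TPM to between 13.9 and 19.9 TPM, and in SIN3A/3B-DKO1. IER3, an early response gene, rose in both MLL1-KO lines and in SAP30-KO2, from 68.1 and 66.5 TPM to between 100.9 and 121.3 TPM. Some of the calls on other pathway genes were lost when 1 library was left out. This held for IL1B in SAP30-KO1, IL1A in MLL1-KO1 and IL6 in SAP30-KO2 without any 1 of the 4 libraries compared (adjusted p 0.10 to 0.15, 0.057 to 0.094 and 0.083 to 0.18). It held for CXCL1 in SIN3A/3B-DKO1 without the first parental library (0.59, adjusted p = 0.17) or its own second (0.71, adjusted p = 0.12), and for IL1RAP in SIN3A/3B-DKO2 without its first (-0.53). IKBKG lost its call in SAP30-KO1 (0.52) and MLL1-KO2 (0.48) without the second library of each. CYLD in SIN3A/3B-DKO1 (0.57 and 0.56) and IER3 in SAP30-KO2 (both 0.58) were just under 1.5-fold without the second parental library or, in turn, the second of SIN3A/3B-DKO1 and the first of SAP30-KO2. With quantile scaling IL1RAP (-0.46) and TNFRSF11A (-0.40) were not called in MLL1-KO1, and with neighbours subtracted IL6 was not called in SAP30-KO1 (0.70) and SAP30-KO2 (0.35).

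**Figure D5:**
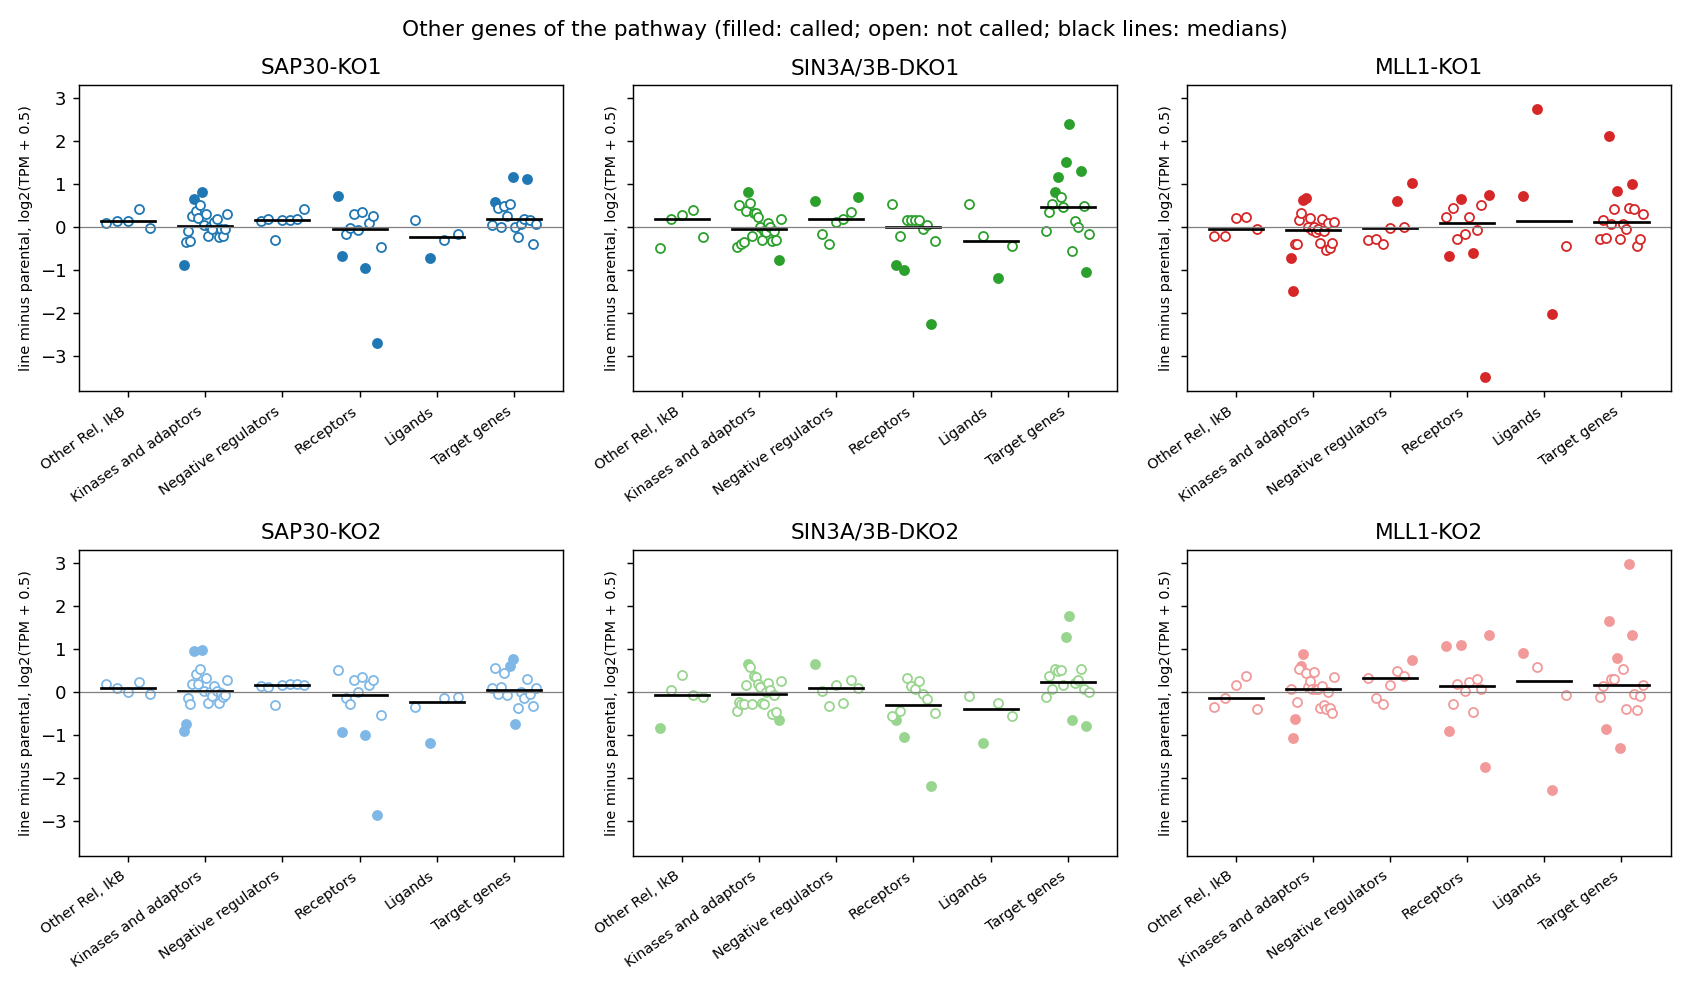
Difference of log2(TPM + 0.5) from parental of the 66 other pathway genes tested, by list and line, with filled points for calls, open points for values not called and black lines at list medians. The lowest point is TNFRSF1B at -3.49 in MLL1-KO1, and IL8 is the highest target gene in SIN3A/3B-DKO1 at 2.40.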

How the data were processed

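Total RNA of cultured parental and edited MDA-MB-231 cells was made into mRNA libraries by the authors (KAPA mRNA HyperPrep, Illumina NextSeq). The submitters' processing notes name FastQC 0.11.2, TopHat, featureCounts and the build hg19, while the annotation and strand setting are not given in the sources used here. The authors deposited 1 value per gene and library under the name RPKM, but the values of each library sum to 1000000, a property of TPM, and these deposited values were used as TPM, although the tests had been designed for RPKM. TPM are relative and blind to the amount of RNA per cell. Low values rise in steps of 1 read, from which read numbers were recovered (18519 of 18519 genes above 0, within 0.02 of a whole number) and gave depth and counting intervals.

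The 13540 genes that reached 1 TPM in 2 or more libraries entered the main fit, made by limma 3.58.1 (R 4.3.3) on log2(TPM + 0.5) with a mean per group, a variance trend, 7 residual and 3.6 prior degrees of freedom. Adjusted p-values are Benjamini-Hochberg values over all genes tested in a comparison. The labels do not say whether the 2 libraries of a group came from separate cultures, so p-values measure the spread between libraries, which may be technical. In comparisons between genotypes they also leave out the spread between the lines of a genotype. The replicate numbers of the labels did not pair libraries (mean correlation of deviations 0.015, from -0.073 to 0.082, over 21 pairs of groups), and no block was used.

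The members and lists were chosen with earlier results of these data known. Named beside the members and targeted genes are, from each list, up to 4 genes called in the same direction in both lines of a genotype, by mean absolute change; BCL3 was named after its values were seen. Some genes that the rules name are not reported here. Alternatives were pseudocounts of 0.1 and 1, no low-value filter, quantile and median-ratio scaling, other fold minimums, only the compared libraries, the replicate block, voom on recovered reads, subtraction of the median of 51 neighbouring genes (13062 genes with a position) and leaving out each library. Gene positions are from GENCODE release 44 on GRCh37 and promoter windows from RefSeq on GRCh38.p14. Counts and plots were made with Python 3.11.15, pandas 2.3.3, scipy 1.17.1 and matplotlib 3.10.9.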

Additional observations from a re-analysis of the deposited data

Results flagged for a closer look

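The results below were taken up because a direct test of the difference between lines of 1 genotype, or between genotypes, was called. Values are log2 differences in the limma fit. SIN3A/3B-DKO1 exceeded SIN3A/3B-DKO2 by 0.957 at ICAM1, 0.871 at RELB and 1.19 at CD40. MLL1-KO1 differed from MLL1-KO2 by -1.463 at ICAM1 and -0.721 at TRAF1. SAP30-KO differed from SIN3A/3B-DKO by -0.664 at RELA, -0.64 at ICAM1 and 0.799 at CD40. MLL1-KO differed from SAP30-KO by 0.819 at RELA, -1.384 at ICAM1, -3.387 at CD40, -0.84 at TRAF1 and -0.635 at NFKBIE. MLL1-KO differed from SIN3A/3B-DKO by -2.024 at ICAM1, -2.589 at CD40 and -1.09 at TRAF1. Comparisons of 1 genotype with the other genotypes share its libraries. Groups of 2 libraries are too small for a test of single outlying libraries.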

How the results depend on the processing

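CD40 was called lower in all 6 lines under every alternative tried, except that a 2-fold minimum removed it in SAP30-KO1. The fold minimum moved the counts of members most. With a 2-fold minimum the lower and higher counts were 0 and 0 in SAP30-KO1; 0 members were higher in SAP30-KO2, SIN3A/3B-DKO2 and MLL1-KO1, 3 were higher in SIN3A/3B-DKO1 and 1 was lower in MLL1-KO2. With no minimum, lower and higher counts were 5 and 5 in MLL1-KO1, 3 and 6 in SAP30-KO1, 3 and 5 for SAP30-KO2, 2 and 8 for SIN3A/3B-DKO1, and 2 and 4 for SIN3A/3B-DKO2, and 7 were higher in MLL1-KO2. Between lines and genotypes a 2-fold minimum left 1 member in SIN3A/3B-DKO, 1 in MLL1-KO, 0 for SAP30-KO against SIN3A/3B-DKO and 2 for MLL1-KO against SAP30-KO. In the same order no minimum gave 7, 7, 7 and 8, and it gave 6 for MLL1-KO against SIN3A/3B-DKO. Counts of all genes under these minimums are not given here for comparisons between lines and genotypes. Median-ratio scaling gave 2 lower in SAP30-KO1 (RELA added, -0.60). A pseudocount of 0.1, quantile scaling, median-ratio scaling and voom gave 2 higher in MLL1-KO2 (RELB added). Voom gave 5 higher in SAP30-KO1 and 1 between the SAP30-KO lines. Subtracting neighbouring genes left 1 higher in SAP30-KO2 (TRAF1), as NFKB2 at 0.58 lost its call. Fitting only the libraries compared left 0 between the SIN3A/3B-DKO lines. Leaving out libraries in turn gave 1 to 2 lower and 3 to 4 higher in SAP30-KO1, where 2 lower came without its replicate 1 (RELA added), and 1 to 2 higher in MLL1-KO2, where 2 came without its replicate 2 (RELB added). It gave 5 to 6 higher in SIN3A/3B-DKO1 (NFKBIE added), 3 to 4 between the SIN3A/3B-DKO lines (TRAF1 added), 2 to 3 for SAP30-KO against SIN3A/3B-DKO (ICAM1 lost), 5 to 6 for MLL1-KO against SAP30-KO (TNFAIP3 added) and 3 to 4 for MLL1-KO against SIN3A/3B-DKO (NFKBIE added).

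The sign turned for BIRC3 in SAP30-KO2 (0.049) and BIRC2 in MLL1-KO1 (0.202) with neighbours subtracted. It also turned for 34 values of members and 20 of other genes that were called in neither setting, the largest reported sizes being 0.33 and 0.40. CD40 in MLL1-KO1 ranged from -4.12 with a pseudocount of 1 to -6.06 with voom. With the replicate block, the 18 counts of members had the same values, for example 3 higher in SAP30-KO1, and the numbers did not pair libraries. With 2 libraries a group, and 3 to 6 reads of CD40 in MLL1-KO libraries, small differences cannot be seen.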
